A study of Mus musculus with 24 samples.

Results

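The 38 genes of the Hox family on the array were examined in the proximal colon of 24 male mice. Members were every gene whose probe symbol was Hox, a cluster letter from a to d and a number. They were 38 of 19057 genes that had a probe with 1 symbol, and they had 57 probes in all. For each gene the probe with the highest mean level was used, because 13 Hox genes had more than 1. The HoxA and HoxB clusters had 10 genes each, and HoxC and HoxD had 9 each. The rule of membership used no diet comparison and no correlation, but it was set with earlier results of these data known.

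All mice were males on a 129/SvEv background without the gene for IL-10, an anti-inflammatory cytokine. Mice without it can develop colitis, and no wild-type mouse was arrayed. Dams received a diet with 5000 or 25 IU of vitamin D3 per kg in pregnancy and lactation, and offspring received either diet from weaning until 3 months of age. The 4 groups held 6 mice each. Mice of HH and HL had dams on the high diet and mice of LH and LL dams on the low one, and after weaning HH and LH ate the high diet and HL and LL the low. RNA was taken from part of the proximal colon and hybridised to Illumina bead arrays, 1 array a mouse. Mice are named here by group and mother's label (HH 11A). There were 20 different mother's labels among the 24 mice. Of these, 4 were shared by a pair of mice with the same dam's diet and a different own diet.

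Hox genes encode homeodomain transcription factors that give cells their position along the head-to-tail axis. In mammals they lie in 4 clusters, and genes with the same number in different clusters are paralogs that descend from 1 ancestral gene. Low-numbered (anterior) genes start nearer the head and high-numbered (posterior) genes nearer the tail, in the order in which they lie on the chromosome. In the gut they are expressed mostly in the mesenchyme and enteric neurons and more weakly in the epithelium, and the pattern persists in part in the adult. Hox proteins bind DNA together with cofactors of the TALE class, such as Meis and Pbx proteins. In a bulk sample, fewer cells of a type and less RNA per cell cannot be told apart.

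RefSeq promoter windows of build GRCm38.p6, the 250 bases upstream of the transcription start, were at hand for 22 of the Hox genes, in 24 windows of 32851 for all genes. Of the 14 Hox genes detected (below), 9 had a window. The 5 windows printed here belong to Hoxb4, Hoxd4, Hoxd8 and Hoxd10, each of which correlated with at least 1 other HoxB or HoxD gene between mice, and to Hoxa5, which passed with none of them. Each is written 5′ to 3′ on the gene's own strand, and capitals mark the letters TTTAT or ATAAA, which are each other's reverse complement and the core of the sites that intestinal Cdx factors bind. The positions are chr11:96318017-96318266 (plus strand) for Hoxb4, chr2:74721728-74721977 (plus) for Hoxd4, chr2:74704365-74704614 (plus) for Hoxd8, chr2:74691641-74691890 (plus) for Hoxd10 and chr6:52204588-52204837 (minus) for Hoxa5.
Hoxb4: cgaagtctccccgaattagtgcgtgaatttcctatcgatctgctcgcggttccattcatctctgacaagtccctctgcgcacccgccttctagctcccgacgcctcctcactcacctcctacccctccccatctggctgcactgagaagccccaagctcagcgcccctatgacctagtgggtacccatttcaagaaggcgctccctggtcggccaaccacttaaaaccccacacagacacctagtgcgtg
Hoxd4: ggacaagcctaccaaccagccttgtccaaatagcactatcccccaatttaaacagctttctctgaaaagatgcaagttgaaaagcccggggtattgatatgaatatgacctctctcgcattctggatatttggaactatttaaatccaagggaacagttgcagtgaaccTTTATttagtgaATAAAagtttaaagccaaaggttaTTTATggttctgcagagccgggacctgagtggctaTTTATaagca
Hoxd8: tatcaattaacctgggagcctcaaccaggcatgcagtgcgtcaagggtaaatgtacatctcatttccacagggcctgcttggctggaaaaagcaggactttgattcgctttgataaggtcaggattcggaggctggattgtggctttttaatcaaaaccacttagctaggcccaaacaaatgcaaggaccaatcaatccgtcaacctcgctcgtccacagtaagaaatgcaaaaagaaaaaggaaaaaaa
Hoxd10: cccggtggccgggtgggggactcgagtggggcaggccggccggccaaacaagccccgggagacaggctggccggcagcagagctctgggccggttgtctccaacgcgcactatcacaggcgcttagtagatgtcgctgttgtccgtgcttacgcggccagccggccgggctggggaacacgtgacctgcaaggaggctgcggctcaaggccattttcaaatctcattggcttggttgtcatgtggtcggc
Hoxa5: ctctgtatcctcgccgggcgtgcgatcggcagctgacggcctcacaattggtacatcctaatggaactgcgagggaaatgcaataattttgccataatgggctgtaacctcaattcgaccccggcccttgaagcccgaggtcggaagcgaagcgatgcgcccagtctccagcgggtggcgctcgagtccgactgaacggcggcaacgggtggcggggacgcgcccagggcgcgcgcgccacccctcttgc

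The Hoxd4 window held 4 matches to these letters, a number that 2.27% of all windows reached or exceeded. One match or more was found in 9 of the 24 Hox windows (37.5%) and in 37.3% of all windows. The Hox windows were rich in the dinucleotide CpG, with a median of 12.5 a window against 6 over all windows. It was 7 in the windows of detected Hox genes and 13 in those of the others. Hoxd4 and Hoxd8 were CpG-poor among the windows printed, with 3 and 6, while Hoxb4 had 14, Hoxd10 had 20 and Hoxa5 had 28. A match says only that the letters are present.

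Of the 38 Hox genes, 14 were detected, which here means a detection score above 0.99 on at least 12 of the 24 arrays. This was 36.8% of the family, against 46.7% of all genes (8901 genes). They were Hoxa2, Hoxa5, Hoxa7, Hoxa9 and Hoxa13 of HoxA, Hoxb2, Hoxb4, Hoxb5, Hoxb6, Hoxb7 and Hoxb9 of HoxB, and Hoxd4, Hoxd8 and Hoxd10 of HoxD. None of the 9 HoxC genes was detected. By position in the cluster, 4 of 11 anterior genes (paralog groups 1 to 4), 6 of 11 central genes (5 to 8) and 4 of 16 posterior genes (9 to 13) were. At a score of 0.95 the count was 16, and counting a gene when any of its probes passed left it at 14. Both of these changes can only add genes.

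Hoxa7, Hoxa13, Hoxb4, Hoxb5, Hoxb7 and Hoxd10 passed on all 24 arrays. Another 14 genes passed on 1 to 11 arrays and 10 on none. Hoxa4 came closest to the limit, with 11 arrays and a mean log2 level of 7.33, and Hoxb2 lay just inside it, with 12 arrays and 7.35. Below Hoxa4 followed Hoxd9 with 9 arrays, Hoxa11 with 7, Hoxa3, Hoxd3 and Hoxc4 with 4 each, Hoxd11 with 3, and Hoxc10 and Hoxb3 with 2. Hoxd13, Hoxc12, Hoxc6, Hoxa6 and Hoxb8 passed on 1 array each. Hoxd1, Hoxc8, Hoxa10, Hoxd12, Hoxb1, Hoxc13, Hoxc9, Hoxb13, Hoxc5 and Hoxc11 passed on none. Groups 2, 4, 5, 7 and 9 each had a pair of detected paralogs. Those of group 2 were Hoxa2 and Hoxb2, those of group 5 were Hoxa5 and Hoxb5, those of group 4 were Hoxb4 and Hoxd4, those of group 7 were Hoxa7 and Hoxb7, and those of group 9 were Hoxa9 and Hoxb9. Hoxa13, which patterns the hindgut and the genital tubercle, was the 1 detected gene of group 13, while Hoxb13, Hoxc13 and Hoxd13 passed on 0, 0 and 1 arrays. The detection of Hoxa13 rested on 1 of its 3 probes, and the others passed on 3 and 2 arrays. Probes that passed on no array had a median log2 level of 7.07, so a mean near it is the background of the array and not a measured level.

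**Figure D1:**
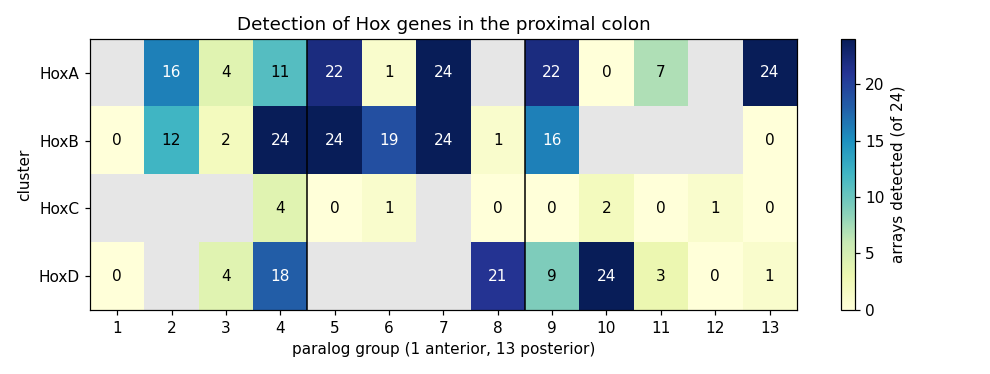
Detection of the Hox genes by cluster (rows) and paralog group (columns), with the number of arrays of 24 on which the gene's brightest probe passed a detection score of 0.99. The 14 genes detected on at least 12 arrays lay in HoxA, HoxB and HoxD, and the HoxC row reached at most 4 arrays.

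Across the series, the percent of probes detected on an array ran from 21.2 to 37.0, and the mean raw intensity from 245 to 637. The 3 arrays with the fewest probes detected were those of HL 2A, LL 3B and LH 6A, at no more than 23.5%, and the other arrays had 27.2% or more. Any 2 arrays correlated at 0.94 to 0.99 over all probes. Of 8 epithelial markers 7 were detected, and their summed raw intensity lay between 28950 and 100850 for LL mice, 32662 and 92194 for LH mice, 47330 and 94118 for HL mice, and 62272 and 99852 for HH mice. The same number of 8 smooth muscle markers was detected, with sums between 12526 and 51930 for LL mice, 12478 and 45228 for LH mice, 17105 and 35503 for HL mice, and 29782 and 47845 for HH mice. Of the proximal colon genes, Cyp2c55 and Aqp4 were detected on all 24 arrays and Ang4 on 14. Of 4 genes taken as distal, Scnn1b and Atp12a were detected on all arrays, Scnn1g on 1 and Fxyd4 on none. Of 7 genes taken as ileal, Fabp6 was detected on 17 arrays, Apoa1, Apob and Sis on 1 each, and Slc10a2, Apoa4 and Fabp2 on none. These values describe pieces of colon that included muscle. The epithelial and muscle sums were not normalised, and none of the 3 arrays with the fewest probes detected was of an HH mouse. The groups are thus not compared by these sums.

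Levels are given as log2 of the quantile-normalised intensity, as the mean ± SD of 6 mice. The levels of different genes come from different probes and are not compared with each other. Hoxb7, a central gene, varied most between mice, with an SD of 0.50 over the 24 mice that was larger than that of 96.9% of all detected genes. Its level was 9.02 ± 0.76 in HH (lowest 8.35, median 8.72, highest 10.43), 9.09 ± 0.65 in HL (8.05, 9.13 and 9.97), 8.99 ± 0.12 in LH (8.83, 9.02 and 9.15) and 9.20 ± 0.36 in LL (8.75, 9.24 and 9.74). The extremes were HL 8 and HH 11A, a 5.18-fold difference in intensity. All 4 groups overlapped, and the LH mice lay closest together. A second Hoxb7 probe, also detected on all 24 arrays, followed the first over the 24 mice with r = 0.90 and rho = 0.87, as a description. It too was high in HH 11A (9.94) and low in HL 8 (7.87). By the diet after weaning the 2 probes differed in sign, with a mean log2 difference between high and low diet of -0.14 for the first and 0.05 for the second.

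Hoxb4, which is known to expand blood stem cells, had the next largest SD, 0.44. Its level was 7.98 ± 0.44 in HH (7.53, 7.96 and 8.55), 8.29 ± 0.65 in HL (7.62, 8.28 and 9.30), 8.14 ± 0.20 in LH (7.98, 8.04 and 8.48) and 8.21 ± 0.44 in LL (7.70, 8.11 and 8.90). The highest mouse was HL 14A and the lowest HH 10B, 3.41-fold apart. Hoxb5, which acts in the development of enteric neurons, had an SD of 0.41. Its level was 8.35 ± 0.37 in HH (7.82, 8.34 and 8.94), 8.60 ± 0.53 in HL (7.75, 8.67 and 9.14), 8.18 ± 0.25 in LH (7.94, 8.08 and 8.59) and 8.56 ± 0.38 in LL (7.86, 8.64 and 8.90). HL held both the lowest mouse, HL 8, and the highest, HL 14A, which differed 2.62-fold.

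Among the HoxD genes, Hoxd10, a posterior gene that patterns motor neurons of the lumbar spinal cord, had a level of 7.99 ± 0.21 in HH (7.81, 7.93 and 8.39), 8.23 ± 0.47 in HL (7.58, 8.18 and 8.81), 7.94 ± 0.18 in LH (7.73, 7.97 and 8.19) and 8.17 ± 0.42 in LL (7.76, 8.03 and 8.98). HL 8 was again the lowest mouse, and LL 3B the highest. The other HoxD genes were the central gene Hoxd8 and the anterior gene Hoxd4, which patterns the upper vertebrae. Hoxd8 was at 7.83 ± 0.40, 7.75 ± 0.26, 7.79 ± 0.14 and 7.66 ± 0.13 in HH, HL, LH and LL. Hoxd4 was at 7.65 ± 0.30, 7.60 ± 0.32, 7.61 ± 0.19 and 7.50 ± 0.23 in the same order. Both were highest in HH 11A, at 8.63 and 8.21.

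The remaining HoxB genes varied less. Hoxb6, a central gene, was at 7.70 ± 0.21, 7.63 ± 0.51, 7.71 ± 0.37 and 7.67 ± 0.26, again lowest in HL 8 (7.19). Hoxb9, a posterior gene that patterns the ribs, was at 7.45 ± 0.14, 7.48 ± 0.11, 7.54 ± 0.21 and 7.44 ± 0.14. Hoxb2, an anterior gene that acts in the hindbrain, was at 7.39 ± 0.13, 7.42 ± 0.04, 7.31 ± 0.12 and 7.29 ± 0.16. These last 2 lay within 1 log2 unit over all 24 mice.

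Of HoxA, Hoxa7 was at 9.64 ± 0.30, 9.79 ± 0.28, 9.65 ± 0.27 and 9.75 ± 0.15. Hoxa5, which is needed for lung and gut morphogenesis, was at 8.29 ± 0.14, 8.28 ± 0.23, 8.12 ± 0.31 and 8.15 ± 0.29, with its lowest value in LL 3B (7.63). Hoxa9, which maintains blood stem cells, was at 7.88 ± 0.15, 7.94 ± 0.21, 7.94 ± 0.22 and 7.73 ± 0.24, also lowest in LL 3B. A second Hoxa9 probe, detected on 18 arrays, followed the first only weakly (r = 0.36, rho = 0.44, as a description). Hoxa13 was at 7.74 ± 0.11, 7.83 ± 0.13, 7.77 ± 0.16 and 7.90 ± 0.25, and Hoxa2, which gives neural crest of the hyoid arch its identity, at 7.46 ± 0.18, 7.46 ± 0.25, 7.38 ± 0.27 and 7.53 ± 0.14. The Hoxa13 value in LL 3B, the highest of all (8.39), was seen with 1 of the 3 probes for this gene. In the same mouse the others read 7.19 and 7.05 and passed on only 3 and 2 arrays. Over the 24 mice their r with the first probe was 0.21 and -0.36, as a description. LL 3B was among the 3 arrays with the fewest probes detected. Over the 24 mice the percent of probes detected correlated with Hoxa5 (r = 0.68, adjusted permutation p = 0.0238, without LL 3B and HL 2A 0.57) and Hoxa13 (r = -0.64, adjusted permutation p = 0.0364, without the same mice -0.36). These were among 238 relations with array measures and mean levels of gene lists, of which 7 passed by r and 0 by rho. By rho these values were 0.55 (adjusted permutation p = 0.177) and -0.50 (adjusted permutation p = 0.291). Its part in the levels of Hoxa5 and Hoxa13 was not tested.

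**Figure D2:**
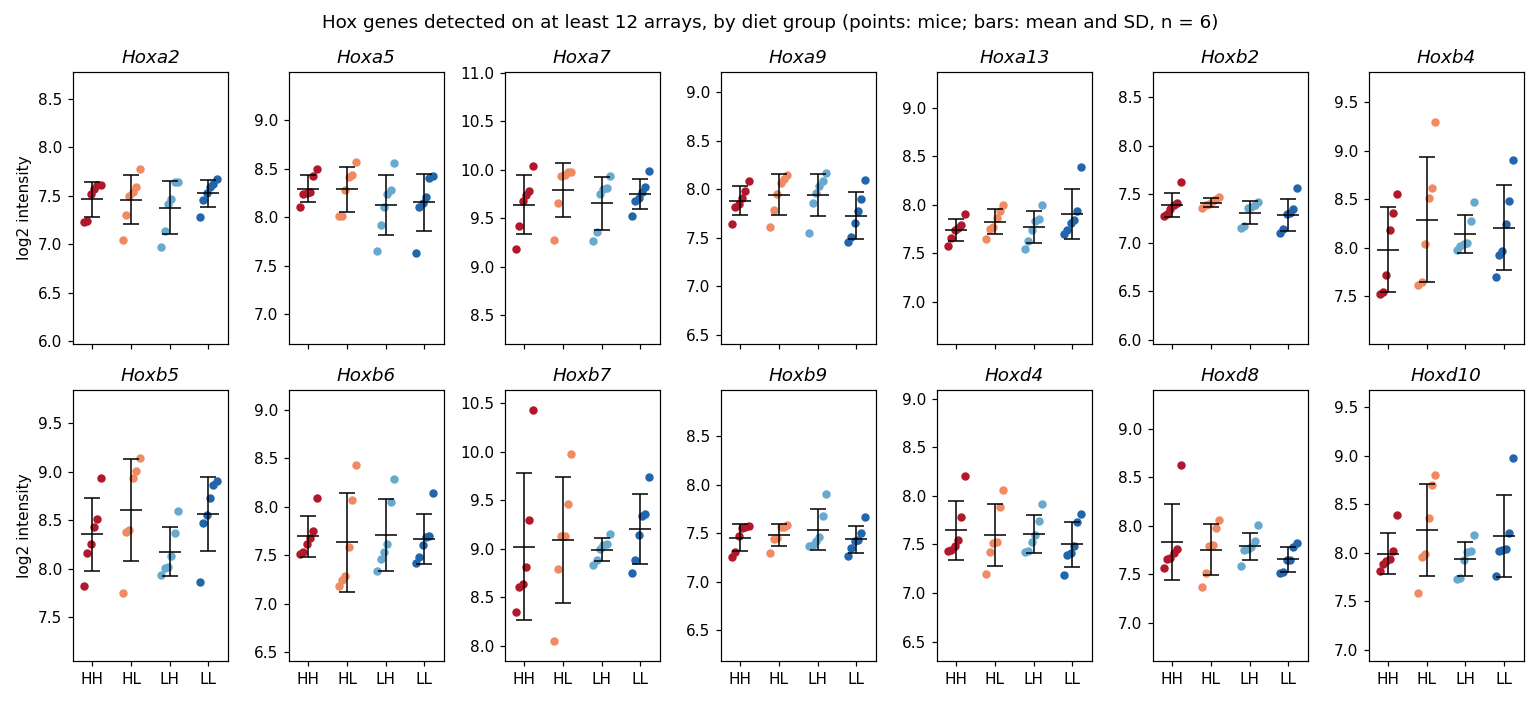
Levels of the 14 detected Hox genes in log2 intensity, 1 panel a gene with an axis of the same span, for the 4 diet groups (points are mice, bars the mean and SD of 6 mice). The groups overlapped in all panels, and the points of Hoxb4, Hoxb5 and Hoxb7 were spread most widely, with SDs over the 24 mice of 0.44, 0.41 and 0.50.

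Averaged over the detected genes of each class, as deviations from each gene's mean, the 6 central genes ran from -0.32 in HL 8 to 0.59 in HH 11A. The 4 anterior genes ran from -0.21 in HH 10 to 0.45 in HL 14A, and the 4 posterior genes from -0.13 in LL 13 to 0.22 in HL 2A. The posterior mean minus the anterior mean ran from -0.39 in HL 14A to 0.21 in HL 2A. By cluster, HoxB ran from -0.46 in HL 8 to 0.55 in HL 14A. HoxD ran from -0.38 in HL 8 to 0.60 in HH 11A, and HoxA from -0.32 in LH 6A to 0.21 in HL 8C. The next highest posterior mean after HL 2A was that of LL 3B (0.21). HL 2A, LL 3B and LH 6A were the 3 arrays with the fewest probes detected, and the part of this in these ranges was not tested. Mice of 1 mother's label were not always alike. Their mean absolute difference over the 14 genes was 0.19 for label 10, 0.45 for 10B, 0.35 for 13 and 0.43 for 3B, against a median of 0.29 over the 272 other pairs of mice.

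Next, the 91 pairs of detected Hox genes were tested for levels that rose and fell together over the 24 mice. A Benjamini-Hochberg adjusted permutation p under 0.05 was met by 10 pairs, all with a positive r. Their unadjusted permutation p ran from 1e-05, the smallest that 100000 resamples can give, to 0.00534. All 10 lay within or between HoxB and HoxD, of 36 such pairs with a median r of 0.37. None of the 55 pairs with a HoxA gene passed, and their median r was -0.03. Some of the 55 passed under other settings (below), most of these with arrays scaled by their median alone. Over all pairs of the 8901 detected genes, 6.15% had a positive r at least as high as the weakest of the 10 (0.55) and 11.6% had an absolute r that high. The Hox share was 11.0%, all of it positive, which is above the first of these and close to the second. The median r was 0.05 over the Hox pairs and 0.008 over all pairs. The 24 points of each r share the array's own scaling, and 4 pairs of mice share a mother's label.

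The highest r joined Hoxd4 and Hoxd8, which lie in 1 cluster (r = 0.77, adjusted permutation p = 0.00091, rho = 0.73, adjusted permutation p = 0.00409). Without HL 14A and HH 11A, the mice farthest from the Hoxd4 median, r was 0.59. Genes of different clusters reached similar values. Hoxb7 and Hoxd4 correlated at 0.77 (adjusted permutation p = 0.00091, rho = 0.61, adjusted permutation p = 0.0292), and at 0.61 without HL 8 and HH 11A. Hoxb5 and Hoxd10 correlated at 0.73 (adjusted permutation p = 0.00091, rho = 0.67, adjusted permutation p = 0.00819), and at 0.69 without HL 14A and HL 8. Within HoxB, Hoxb4 and Hoxb7 had r = 0.71 (adjusted permutation p = 0.00328) and rho = 0.80 (adjusted permutation p = 0.00182). Their r was the same, 0.71, without HL 14A and LL 13. Hoxb5 and Hoxb7 had r = 0.70 (adjusted permutation p = 0.00227) and rho = 0.68 (adjusted permutation p = 0.00819), with 0.59 without HL 14A and HL 8.

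The other pairs that passed were Hoxb4 with Hoxb5 (r = 0.68), Hoxb7 with Hoxd8 (0.68), Hoxb7 with Hoxd10 (0.64), Hoxb6 with Hoxd4 (0.57) and Hoxb6 with Hoxb7 (0.55). Hoxb7 was thus in 6 of the 10. The value of Hoxb7 with Hoxd8 rested in part on the end mice and was 0.40 without HL 8 and HH 11A. No paralogs of 1 group passed. Of these, Hoxb4 with Hoxd4 came closest (r = 0.50, adjusted permutation p = 0.0845) and passed with each group's mean removed (r = 0.56, adjusted permutation p = 0.0324), and all 5 pairs of paralogs passed with arrays scaled by their median alone. The lowest r, between the posterior genes Hoxa13 and Hoxb9, was -0.50 and missed the threshold (adjusted permutation p = 0.0949), and it was -0.24 without LL 3B and LH 3B. Hoxa5 and Hoxa9 had the highest r within HoxA, 0.51, which missed it as well (adjusted permutation p = 0.0719) and was 0.22 without LH 6A and LL 3B. This pair passed with the neqc background correction (r = 0.56, adjusted permutation p = 0.0417) and with each group's mean removed (r = 0.55, adjusted permutation p = 0.0352). By rho, 7 of the 10 passed, and those of Hoxb6 with Hoxd4 and with Hoxb7 and of Hoxb7 with Hoxd8 did not. With each group's mean removed, 14 pairs passed. Without the 3 arrays with the fewest probes detected 12 passed, of which 11 were positive and 1, Hoxa13 with Hoxb6, was negative (r = -0.67). With arrays scaled by their median alone, in place of quantile normalisation, 61 passed, and the median r over all pairs of detected genes rose to 0.69.

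**Figure D3:**
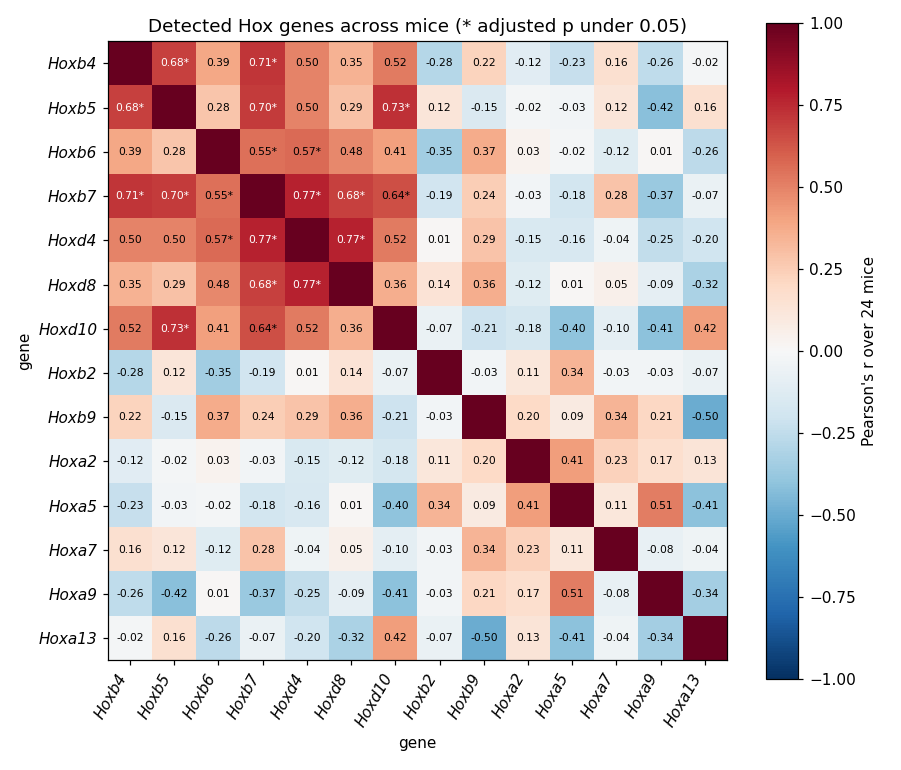
Pearson's r between the 14 detected Hox genes over the 24 mice, with HoxB and HoxD genes first, HoxA genes last and the pairs that passed an adjusted permutation p under 0.05 marked by a star. The 10 marked pairs lie among Hoxb4 to Hoxb7 and the HoxD genes, where r reached 0.77, and no pair with a HoxA gene is marked.

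The genes whose level followed Hoxb7 most closely, among the other 8900 detected genes, are given as a description. Osr2, an odd-skipped zinc finger factor of limb and palate development, came first with r = 0.87 over the 24 mice, and 0.78 without HL 8 and HH 11A. Its level ran from 8.75 in HL 8 to 11.57 in HH 11A, the same mice that bounded Hoxb7. It was followed by Hoxd4 (0.77), Aamdc (0.75), Tbx3, a T-box factor (0.75), Sesn1, a stress-responsive sestrin (0.73), Gsdme, a pore-forming gasdermin (0.72), Hoxb4 (0.71), Hoxb5 (0.70), Nts, the precursor of the gut peptide neurotensin (0.69), and Hoxd8 (0.68). Thus 4 of the 10 most alike genes were Hox genes. With Hoxb7 itself, Hox genes made up 14 of the 8901 detected genes. These 4 are pairs that passed above, so they are the same result and not a further one. Hoxd10 ranked 14 and Hoxb6 33, but the remaining detected Hox genes ranked from 779 (Hoxa7) to 8625 (Hoxa9). The lowest values were those of Ly6g6e (-0.76), Sqstm1, an autophagy receptor (-0.66), Fads2, a fatty acid desaturase (-0.65), Pmp22 (-0.64) and Fdps, an enzyme of the cholesterol pathway (-0.64).

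To set the Hox levels beside position in the gut, each detected Hox gene was compared with 20 detected genes of 4 kinds: regional colon genes, TALE cofactors, intestinal patterning factors and neighbours of the Hox clusters. Of these 280 relations, 15 passed an adjusted permutation p under 0.05, 11 with a positive and 4 with a negative r. Unadjusted, their permutation p ran from 1e-05 to 0.00211. This was 5.36%, where 3.13% of relations between these Hox genes and all other detected genes had an absolute r as high as the weakest of the 15. By rho, 6 of the 15 passed.

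Hoxd10 and Hoxb5 went with Meis genes. Meis1 ran from 7.82 in HL 8 to 9.05 in LL 6, and correlated with Hoxd10 at r = 0.83 (adjusted permutation p = 0.0014, rho = 0.68, adjusted permutation p = 0.0185). Without LL 6 and HL 2A this was 0.86. With Hoxb5 its r was 0.74 (adjusted permutation p = 0.0035, rho = 0.63, adjusted permutation p = 0.0495), and 0.71 without the same mice. Hoxb5 also went with Meis2 (r = 0.68, adjusted permutation p = 0.0119), which missed by rho (0.61, adjusted permutation p = 0.0684). The mean of the 4 detected TALE cofactors passed with the same pair of genes. It includes Meis1 and Meis2, so it is not independent of the relations above. Its r was 0.78 for Hoxd10 (0.62 without LL 3B and HL 2A) and 0.71 for Hoxb5. By rho these were 0.43 (adjusted permutation p = 0.413) and 0.65 (adjusted permutation p = 0.103) and missed the threshold. The mean of the retinoic acid genes covered the 3 detected genes of 10 listed. It passed with Hoxd8 by r (0.68) and missed by rho (0.65, adjusted permutation p = 0.103).

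Hoxa5 passed with 5 genes in the positive direction or the negative. Its r was 0.81 with Hibadh, an enzyme of valine breakdown encoded beside the HoxA cluster (adjusted permutation p = 0.0014, rho = 0.76, adjusted permutation p = 0.00653), and 0.78 without LH 6A and HL 2A. With Aqp4, a water channel of the proximal colon that ran from 10.52 in HL 10 to 12.64 in HH 10B, its r was 0.71 (adjusted permutation p = 0.00448, rho = 0.75, adjusted permutation p = 0.00653). Without HH 11A and HL 10 this was 0.79, but without the 3 arrays with the fewest probes detected it was 0.60 and missed the threshold (adjusted permutation p = 0.0719). The epithelial transcription factors Hnf4a (0.70) and Foxa1 (0.69) and the sodium channel subunit Scnn1b (-0.61, but 0.50 with arrays scaled by their median alone) were the others. The Hnf4a value fell to 0.37 without those 3 arrays (adjusted permutation p = 0.403). Of these arrays, HL 2A and LL 3B had the highest Scnn1b levels (8.95 and 8.68), with Hoxa5 at 8.01 and 7.63. Hoxa5 itself correlated with the percent of probes detected (r = 0.68, above). The part of that percent in the relations with these 5 genes was not tested. The mean of the 7 detected epithelial markers moved with Hoxa5 as well (r = 0.70, adjusted permutation p = 0.0119, and 0.42 without LH 6A and LL 3B), and its part in these relations was not tested. The mean of the ParaHox and patterning factors covered 6 detected genes, Hnf4a and Foxa1 among them, and so is not independent of those relations. It gave r = 0.75 (adjusted permutation p = 0.00357), and 0.55 without LH 6A and LL 3B. By rho both missed the threshold, at 0.57 (adjusted permutation p = 0.148) and 0.63 (adjusted permutation p = 0.103).

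Evx1, a homeobox gene at the posterior end of the HoxA cluster, was low where Hoxb6, Hoxd4 and Hoxd8 were high. It ran from 7.43 in HH 11A to 8.34 in LL 13. Its r was -0.77 with Hoxb6 (adjusted permutation p = 0.0028, rho = -0.76, adjusted permutation p = 0.00653) and -0.71 without HH 11A and LH 3B. It was -0.64 with Hoxd4 and -0.60 with Hoxd8. With arrays scaled by their median alone these values were -0.15, -0.15 and 0.05, and 184 of the 280 relations passed. The remaining relations that passed were Hoxa2 with the endodermal factor Gata6 (0.68) and with Hibadh (0.61), Hoxb2 with Nkx2-3, a factor of gut mesoderm (0.67), and Hoxd10 with Scnn1b (0.62). The last was 0.34 without LL 3B and HL 2A.

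No Hox gene passed with Cdx1 or Cdx2, caudal-type factors of the intestine that were detected on all 24 arrays. None passed with Cyp2c55 or Atp12a. Hoxb7 and Atp12a, a proton pump of the distal colon that ran from 8.46 in HH 11A to 11.80 in LH 12B, had r = -0.53 (adjusted permutation p = 0.102), and -0.12 without HL 14A and HH 11A. Smooth muscle markers passed with no Hox gene, and r with their mean ran from -0.22 to 0.48. No gene of the set passed with more Hox genes than Evx1 did, which passed with 3. Where along the proximal colon each piece lay is not given in the sources used here.

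**Figure D4:**
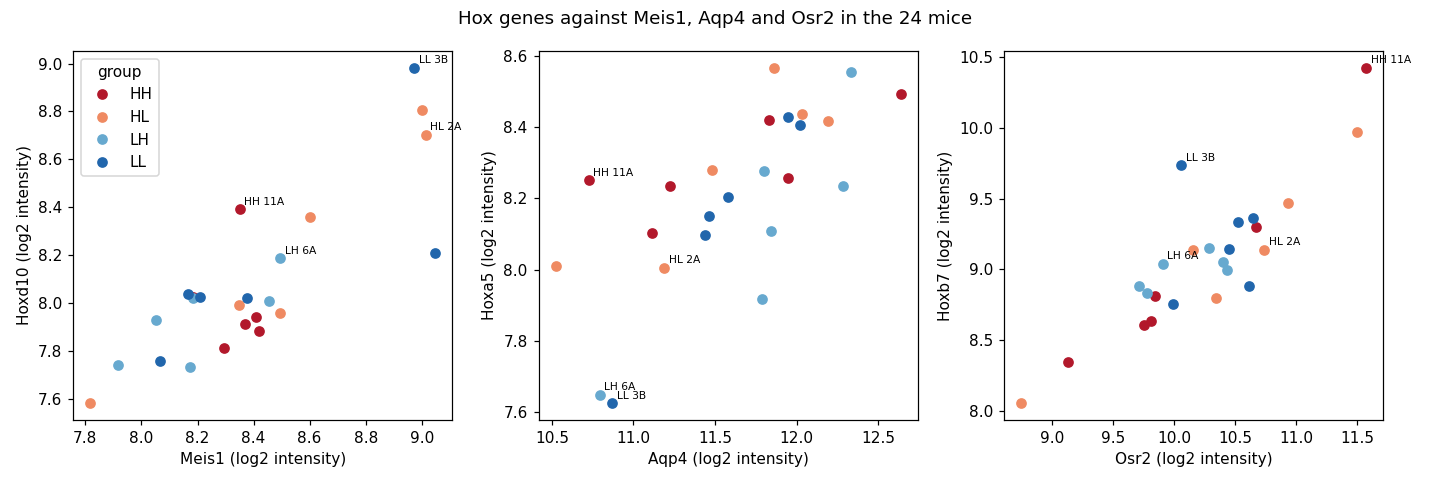
Hoxd10 against Meis1, Hoxa5 against Aqp4 and Hoxb7 against Osr2, 1 point per mouse coloured by group, both axes in log2 intensity, with the 3 arrays with the fewest probes detected and HH 11A named. The points rise together (r = 0.83, 0.71 and 0.87), and LH 6A and LL 3B lie at the low end of Hoxa5.

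The diets were then compared, each over 12 mice against 12, with limma and an adjusted p over all probes tested. By the diet after weaning, 0% of probes were called, and 32 of the 38 Hox genes could be tested. The smallest adjusted p of any probe was 0.944 (limma). Without adjustment, 4.22% of all probes had a limma p under 0.05, and 0 of the 32 Hox genes did. Hox levels were higher with the high diet in 13 and lower in 19, with a median log2 difference of -0.01. Hoxb5 had the smallest p of them. Its level was 8.27 ± 0.32 (SD, n = 12) with the high diet and 8.58 ± 0.44 (SD, n = 12) with the low one, a log2 difference of -0.32 ± 0.15 (SE, adjusted p = 0.944, limma). The 95% interval ran from -0.63 to 0.0005, and 10 of the 12 high-diet mice lay under the low-diet mean. A permutation test gave Hoxb5 a p of 0.056. With the mother's label as a random block its difference was -0.34 (adjusted p = 0.842, limma). Its unadjusted limma p was then 0.0337, the 1 Hox gene under 0.05.

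Hoxd10 came next, with a difference of -0.24 ± 0.13 (SE, interval -0.51 to 0.04, adjusted p = 0.944, limma), and 11 of the 12 high-diet mice lay under the low-diet mean. The medians lay closer together, at 7.94 with the high diet and 8.03 with the low one. The highest low-diet values were those of LL 3B (8.98), HL 10B (8.81) and HL 2A (8.70). LL 3B and HL 2A were among the arrays with the fewest probes detected. Hoxc12, which was detected on 1 array, followed with -0.07. Hoxb7, Hoxb4 and the other detected genes had larger p-values. Meis1, which went with Hoxb5 and Hoxd10 between mice, had a difference of -0.24 by the same diet (unadjusted p = 0.0819, limma). All 8 smooth muscle markers had lower means with the high diet, and Des, a muscle filament protein, had a difference of -0.37 (unadjusted p = 0.0199, limma). As a deviation, the mean of the smooth muscle markers was highest in the low-diet mice LL 6 and HL 10B, at 0.82 each. The high-diet mouse HH 10B followed at 0.55. The 4 tested markers of exocrine pancreas had lower means as well, but only 1 of this list was detected on 12 or more arrays. Summed over the 5 genes of the list with a probe, raw intensity reached 33193 in HL and 29486 in LL. The medians of these groups were 1445 and 1871, so single mice held the high values. In HH and LH the sums reached 3030 and 2171. The 3 tested immune markers had higher means, of which Ptprc differed by 0.18 (unadjusted p = 0.0179, limma), and so did 5 of 6 fibroblast markers. Between mice, r of Hoxd10 was -0.50 with the mean of the immune markers (adjusted permutation p = 0.182) and 0.16 with that of the smooth muscle markers (adjusted permutation p = 0.778), and r of Hoxb5 with the immune mean was -0.39 (adjusted permutation p = 0.313). Their part in the Hox differences was not tested.

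By the dam's diet, 0% of probes were called as well (smallest adjusted p 0.9995, limma), and 33 Hox genes were tested. Without adjustment 2.72% of probes had a limma p under 0.05, and none of the 33 did. There were 16 Hox genes with a higher and 17 with a lower mean under the high diet. Hoxb2 had the smallest p, with a difference of 0.10 ± 0.05 (SE, 95% interval -0.0007 to 0.205, adjusted p = 0.9995, limma) and a permutation p of 0.0422. The permutation p is not adjusted, and such tests were run for all 14 detected Hox genes in each comparison. Hoxb2 was detected on 12 arrays, the fewest that counted as detected here. Hoxc10, detected on 2 arrays, had a difference of -0.08, and Hoxa5 one of 0.15 ± 0.10 (SE, adjusted p = 0.9995, limma). For the 14 detected Hox genes the 95% interval reached a median of 0.21 log2 units to either side of the difference, from 0.10 for Hoxb2 to 0.43 for Hoxb7. These intervals are not adjusted, while a call needed an adjusted p over all probes tested. Hoxb5 after weaning, at the edge of its interval, had an adjusted p of 0.944 (limma). A call would thus have needed a larger change than these widths.

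The interaction asks whether the effect of 1 diet differed by the other. None of 35 Hox genes passed it, and 0% of all probes did. At an unadjusted limma p under 0.05 there were 2 Hox genes, Hoxa11 and Hoxd9, where 2.94% of all probes were under it. The Hoxa11 level in HH mice was 7.37 ± 0.06, against 7.23 ± 0.09 for HL, 7.18 ± 0.07 for LH and 7.29 ± 0.16 for LL, an interaction of 0.25 ± 0.09 (SE, adjusted p = 0.9999, limma). It was detected on 4, 1, 0 and 2 arrays of these groups and so lay near the background. Hoxd9 had an interaction of -0.28 ± 0.13 (SE, adjusted p = 0.9999, limma), and a second Hoxd9 probe followed the first only weakly (r = 0.16, as a description). Hoxa4 came next with 0.17. For any difference among the 4 groups, no Hox gene and 0% of probes were called. At an unadjusted limma p under 0.05, Hoxa11 was the 1 Hox gene of 35, and 2.47% of all probes were under it. Hoxb13 and Hoxd9 followed, the former passing detection on no array.

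**Figure D5:**
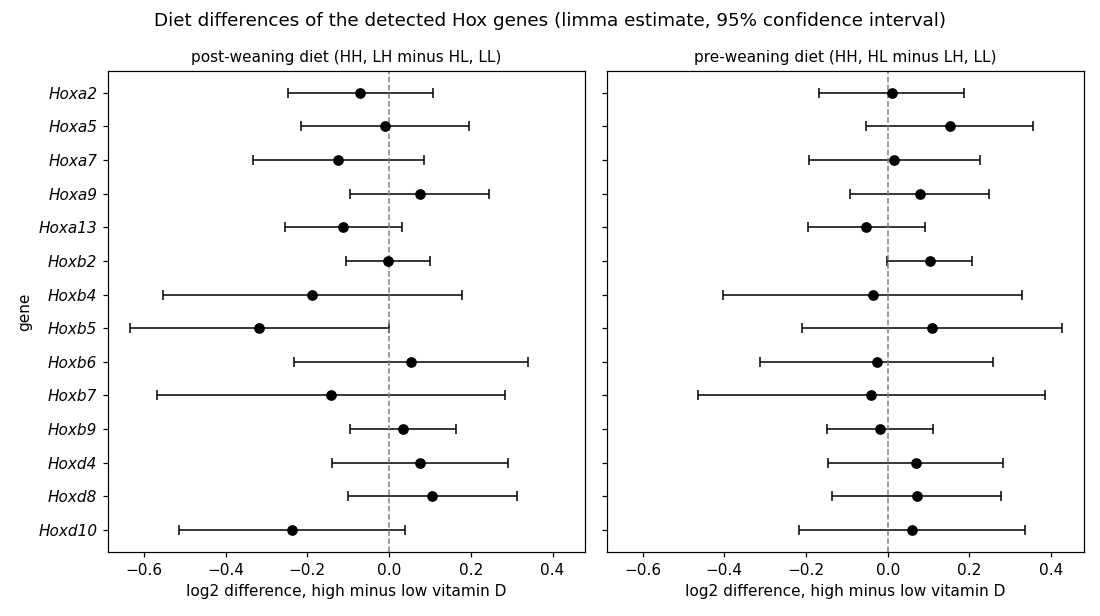
Log2 differences of the detected Hox genes between high and low diet, after weaning and before it, each as 12 mice minus 12 mice with its 95% interval from limma. All intervals include 0, and that of Hoxb5 after weaning, from -0.63 to 0.0005, comes closest to leaving it.

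The regulators and neighbours of Hox genes gave the same count of calls, 0 by either diet. Of the 8 TALE cofactors tested, 2 had a higher and 6 a lower mean with the high diet after weaning, and 5 and 3 by the dam's diet. Pbx3 had the smallest p, with a difference of 0.09 by the dam's diet (unadjusted p = 0.0378, limma). Of 16 genes of the Polycomb complexes, which keep Hox genes silent where they are not used, 7 were higher and 9 lower after weaning, and 11 and 5 by the dam's diet. Phc1 had a difference of 0.12 by the dam's diet (unadjusted p = 0.0462, limma) and Phc2 one of -0.28 by the diet after weaning (unadjusted p = 0.0578, limma). Of 9 Trithorax and demethylase genes, which keep them active, 4 were higher and 5 lower after weaning, and 7 and 2 by the dam's diet. Of 8 retinoic acid genes, whose ligand turns on anterior Hox genes in embryos, 4 were higher and 4 lower after weaning, and of 7 tested by the dam's diet 6 were higher and 1 lower. By the diet after weaning Aldh1a3 had a difference of 0.21 (unadjusted p = 0.0567, limma). Cdx1 and Cdx2 were detected on all arrays, and Cdx4, Pdx1, Gsx1, Gsx2, Gata4, Sox2 and Barx1 on none. Nkx2-3 had a difference of 0.23 by the dam's diet (unadjusted p = 0.0567, limma).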

How the data were processed

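Proximal colon RNA of 24 mice was measured on Illumina whole-genome mouse bead arrays. The deposited probe signals are average intensity values on a linear scale, without normalisation, and each has a deposited detection score from 0 to 1. The authors also deposited log2 values. The methods name quantile normalisation and centring of each probe on its median in Genespring, after a quality check with lumi. The deposited values were not centred by probe: quantile normalisation of the raw intensity gave log2 values within 0.000415 of those deposited.

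Differences were tested with limma 3.58.1 in R 4.3.3 over 1 mean per group. As in the methods, a probe was kept if it lay over the 20th percentile of its array for 80% or more of the mice in either group compared. The p-values were adjusted by Benjamini-Hochberg over all probes tested. Correlations were tested over 24 mice with two-sided permutation tests of 100000 resamples. The fits were checked on simulated data. Of 45281 probes, 34885 had 1 symbol and 18 had several. Array slides and scan batches are not given in the sources used here, and the number of arrays limits the precision.

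The members and gene lists were chosen with earlier results of these data known. Named genes were all Hox genes, the 3 with the smallest p in each comparison, the 3 with the largest SD, the 10 most and 5 least like the first of these, and of other lists those with the smallest p or the markers they were set beside. Pairing by mother's label covers 4 pairs of mice, and the correlation it gave over all probes was 0.139 (0.121 in the fit of the interaction). Alternatives were another background correction, another normalisation, other filters, the deposited values, the methods' t-test, the mother's label as a block and leaving out mice.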

Additional observations from a re-analysis of the deposited data

Results flagged for a closer look

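In each group of 6 mice, the highest and lowest value of each detected Hox gene was compared with the others by Dixon's ratio, and 4 of 56 combinations of gene and group had a mouse past the 95% critical value, where chance gives about 1 in 20. Hoxa13 in LL 3B was at a log2 level of 8.39, above the other LL mice at 7.69 to 7.94. Hoxd10 in LL 3B was at 8.98, with the others at 7.76 to 8.21. Hoxd10 in HH 11A was at 8.39, with the other HH mice at 7.81 to 8.03. Hoxd8 in HH 11A was at 8.63, with the others at 7.57 to 7.76. The 4 values thus came from 2 mice, and LL 3B was 1 of the 3 arrays with the fewest probes detected.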

How the results depend on the processing

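The count of probes called by either diet, their interaction or any of the 4 groups was 0 under all alternatives run. At an unadjusted limma p under 0.05, the count of Hox genes by the diet after weaning (0) was 1 with no filter, 1 with detected probes only, 1 with the mother's label as a replicate block and 0 to 3 with a mouse left out (3 without LL 2C, 2 without LH 6A or HL 8). By the dam's diet (0) it was 1 with the neqc background correction, 2 with no filter, 1 by the methods' t-test, 1 without the 3 arrays with the fewest probes detected and 0 to 2 with a mouse left out (2 without LL 2C or LH 2). For the interaction (2) it was 1 with median scaling, 0 with detected probes only and 1 to 3 with a mouse left out, and for any of the 4 groups (1) it was 0 with detected probes only and 0 to 2 with a mouse left out. The pairing by mother's label changed no call after adjustment. Scaling arrays by their median without quantile normalisation raised the Hox pairs that passed from 10 to 61 and the region and patterning relations from 15 to 184. The median r over all detected genes was then 0.69, and that of the Hox pairs 0.56. With a mouse left out the pairs numbered 7 to 14, by rho 7 and with neqc 13. Under median scaling the differences of Hoxa5 by the diet after weaning (0.062) and of Hoxa13 (0.0574), Hoxb4 (0.11), Hoxb6 (0.0645), Hoxb7 (0.14) and Hoxb9 (0.0189) by the dam's diet changed sign, as did r of Hoxa5 with Scnn1b (0.50) and of Hoxd8 with Evx1 (0.0451). The cause was not tested. Leaving out a mouse turned the sign of differences near 0, after weaning for Hoxa5 (-0.064 to 0.0383), Hoxb2 (-0.0268 to 0.0239), Hoxb6 (-0.00479 to 0.13) and Hoxb9 (-0.0041 to 0.0558), and by the dam's diet for Hoxa2 (-0.0316 to 0.0513), Hoxa7 (-0.0242 to 0.0676), Hoxb4 (-0.14 to 0.0317), Hoxb6 (-0.11 to 0.0304), Hoxb7 (-0.18 to 0.0644), Hoxb9 (-0.0374 to 0.0179) and Hoxd8 (-0.00881 to 0.11). The settings without the 3 arrays, by rho, and those of the region and patterning relations were chosen after seeing the data.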
